A study of Mus musculus with 6 samples.

Results

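The transcripts described are those of 7 membrane proteins that carry neutral amino acids, Slc7a5, Slc3a2, Slc43a2, Slc38a1, Slc38a2, Slc1a4 and Slc1a5. They were chosen by name, as probe sets whose single gene symbol in the platform annotation is 1 of the 7, and where a gene had several probe sets the one with the highest mean over the 6 arrays was used. All 7 were measured, among 22180 genes in all, through 8 probe sets, 2 of them for Slc1a5. The arrays carried total RNA of cultured fibroblast-like synoviocytes, which are connective tissue cells lining the joint, from the knee synovium of C57BL6 mice, used between passages 4 and 8. Both groups had met an adenovirus for 2 h at a multiplicity of infection of 800 and were then kept in culture for 24 h. In the Mock group (3 arrays) the virus carried no insert, and in the Ad-Epas1 group (3 arrays) it carried Epas1, the gene of HIF-2alpha, which is a transcription factor stabilised by low oxygen. The question put to the arrays is how transcripts differ once Epas1 has been delivered. The labels call the replicates biological and name no animal or culture of origin for any of them. The p-values thus cover only the spread between these 6 samples, which may be technical. All levels are log2 values, a difference of 1 being a doubling, and the number of arrays limits their precision.

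Epas1 stood at 8.67, 8.71 and 8.51 on Mock replicates 1, 2 and 3 and at 13.14, 13.15 and 13.11 on Ad-Epas1 replicates 1, 2 and 3, as labelled. The array medians lay between 6.77 and 6.84. Ad-Epas1 replicate 3 stood apart in macrophage transcripts. There the 18 measured macrophage markers had a median of -3.85 from their Mock means, against -0.22 to 0.14 on the other 5 arrays. Their summed level on the linear scale was 3774 on that array and 46727 to 59559 on the others. Single markers also differed from Mock on Ad-Epas1 replicates 1 and 2. Mrc1 stood at 7.96 and 7.93 there and at 10.945, 10.02 and 9.96 on Mock replicates 1, 2 and 3. Cd14 stood at 11.92 and 11.40 there and at 10.42, 9.99 and 10.14 in Mock. Leaving out Ad-Epas1 replicate 3 thus does not remove every difference in macrophage transcripts. On Ad-Epas1 replicate 3, 7 of the 18 lay below 6.62, the 95th percentile of 1390 olfactory and vomeronasal receptor genes that these cells are not known to use, and on the other arrays 0 did. Per the labels, flow cytometry found nearly all cells positive for the fibroblast marker CD90 and few for the macrophage marker CD14. The label counts cells by protein, while the arrays measure RNA, so these are unlike measures. On 5 arrays the macrophage transcripts were high beside that label. Their median level there was 10.98 to 11.56. Their sum was close to that of the 14 fibroblast markers, which was 53445 to 61059 over all 6 arrays. The fibroblast markers had medians between 11.20 and 11.98 on every array. Between the groups 2 fibroblast markers rose, 3 fell and 9 did not pass (limma, adjusted p under 0.05). Of the macrophage markers 4 fell, none rose and 14 did not pass. That is 35.7% of the fibroblast and 22.2% of the macrophage markers changed, against 16.3% of all genes. The last share counts dim genes too and was higher among brighter genes, as described below. The part of either cell type in the results below was not tested. Of the 8 endothelial markers 4 to 6 per array lay below 6.62, and of the 8 lymphocyte markers 6 to 8. In RNA of a whole culture, fewer cells of a type and less RNA per cell cannot be told apart.

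Neutral amino acids cross the plasma membrane through several carrier families with different driving forces. Slc7a5 (LAT1) exchanges large neutral amino acids such as leucine for others from inside the cell, and it reaches the membrane bound to the glycoprotein encoded by Slc3a2 (CD98 heavy chain, 4F2hc). Slc43a2 (LAT4) carries similar substrates by facilitated diffusion. Slc38a1 and Slc38a2 (SNAT1 and SNAT2) take up glutamine, alanine and other small neutral amino acids together with sodium, and Slc1a4 and Slc1a5 (ASCT1 and ASCT2) are sodium-dependent exchangers of alanine, serine, cysteine and, for Slc1a5, glutamine. Leucine uptake through Slc7a5 is known to feed the mTORC1 growth pathway, amino acid shortage induces several of these genes through the factor Atf4, and in other cells Slc7a5 is known as a gene that HIF-2alpha activates.

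Transcripts of 4 of the 7 transporters rose in Ad-Epas1 cells, and none fell. They were Slc7a5, its partner Slc3a2, and the sodium-coupled carriers Slc38a1 and Slc38a2. The other 3, Slc43a2, Slc1a4 and Slc1a5, did not pass the test (limma over all 22180 genes, Benjamini-Hochberg adjusted p under 0.05). As background, 16.3% of all genes passed in this comparison, 6.57% upward and 9.75% downward. These shares count dim genes too. A fit of only the genes above the median level called 3558 genes, against 3620 in the fit of all 22180. The share among brighter genes was thus higher than 16.3%. A list of mostly brighter genes can therefore exceed 16.3% without standing out from genes of like level. The median difference of the 7 was 0.32, against 0.046 over all genes. For the same 4 members every Ad-Epas1 array lay above every Mock array, which held for 21.3% of all genes. The 7 were chosen with earlier results of these data known, so setting them against all genes is a description and not a test. Without Ad-Epas1 replicate 1 the count of risen members was 2 (Slc7a5 and Slc3a2), and it was 1 (Slc7a5) without replicate 2 of either group or without Mock replicate 3.

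**Figure D1:**
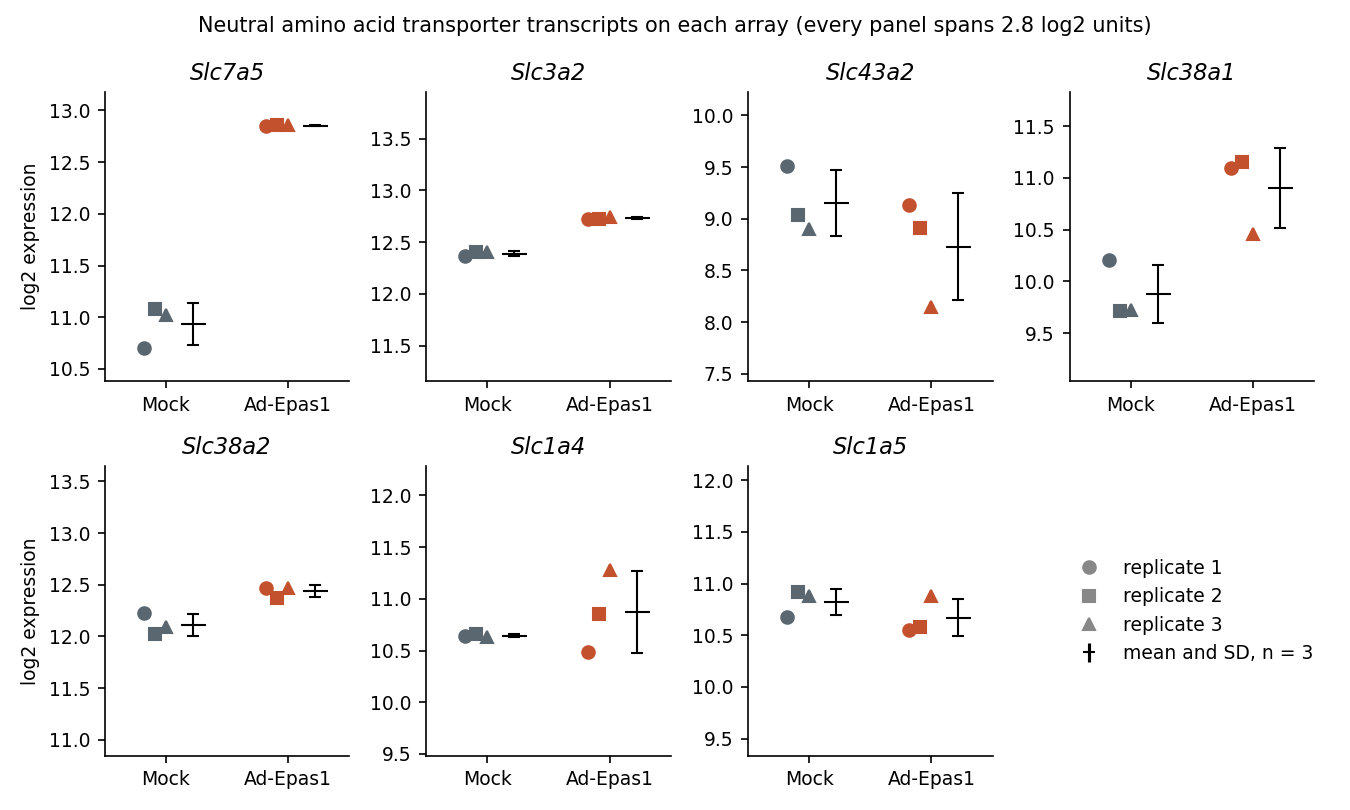
Log2 expression of the 7 transporter transcripts on each array, grey for Mock and red for Ad-Epas1, with the marker shape giving the replicate number and the black bars the mean and SD of 3 arrays. Every panel spans the same number of log2 units, so distances can be compared between panels; Slc7a5 shows the widest gap between groups (1.92), and for Slc43a2, Slc1a4 and Slc1a5 the groups overlap.

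Slc7a5 had the largest change of the 7. Its level was 10.70, 11.08 and 11.02 on Mock replicates 1, 2 and 3 and 12.85, 12.86 and 12.86 on Ad-Epas1 replicates 1, 2 and 3. The Ad-Epas1 arrays lay close together and far above all Mock arrays, among which replicate 1 was lowest. The transcript was 3.78-fold higher in Ad-Epas1 (10.93 ± 0.21 in Mock and 12.853 ± 0.0068 in Ad-Epas1, SD, n = 3 each), a log2 difference of 1.92 with an SE of 0.11 and a 95% interval from 1.66 to 2.18 (limma, adjusted p = 0.00045). By size of rise Slc7a5 ranked 66 among the 22180 genes. It passed the test with each array left out in turn (1.80 to 1.99, adjusted p up to 0.0061), and without Ad-Epas1 replicate 3, the array with few macrophage transcripts, the difference was again 1.92.

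Slc3a2, the heavy chain that brings Slc7a5 and several other light chains to the membrane, rose by a smaller amount. Its level was 12.36, 12.40 and 12.40 on Mock replicates 1, 2 and 3 and 12.72, 12.73 and 12.74 on the Ad-Epas1 replicates in the same order. All Ad-Epas1 arrays were above all Mock arrays, and the spread within each group was small. The difference was 0.34 (12.39 ± 0.023 and 12.73 ± 0.011, SD, n = 3 each), or 1.27-fold, with an SE of 0.060 and a 95% interval from 0.20 to 0.48 (limma, adjusted p = 0.013). It did not pass without Mock replicate 2 (adjusted p = 0.064), Mock replicate 3 (0.061) or Ad-Epas1 replicate 2 (0.052), with differences of 0.34 to 0.35.

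Slc43a2, the facilitative carrier of similar substrates, differed by -0.42 with a 95% interval from -1.08 to 0.24 (limma, adjusted p = 0.34). It stood at 9.51, 9.04 and 8.90 on Mock replicates 1, 2 and 3 and at 9.14, 8.91 and 8.15 on Ad-Epas1 replicates 1, 2 and 3. Ad-Epas1 replicate 3 was the lowest of the 6 arrays, and the other Ad-Epas1 arrays lay within the Mock range. Without that array the difference was -0.13 (95% interval -0.57 to 0.31, adjusted p = 0.66). On the same array the median of the 18 macrophage markers was -3.85 from Mock, and among Mock arrays both Slc43a2 and the macrophage markers (0.14) were highest on replicate 1. The part of macrophage transcripts in the level of Slc43a2 was not tested.

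**Figure D2:**
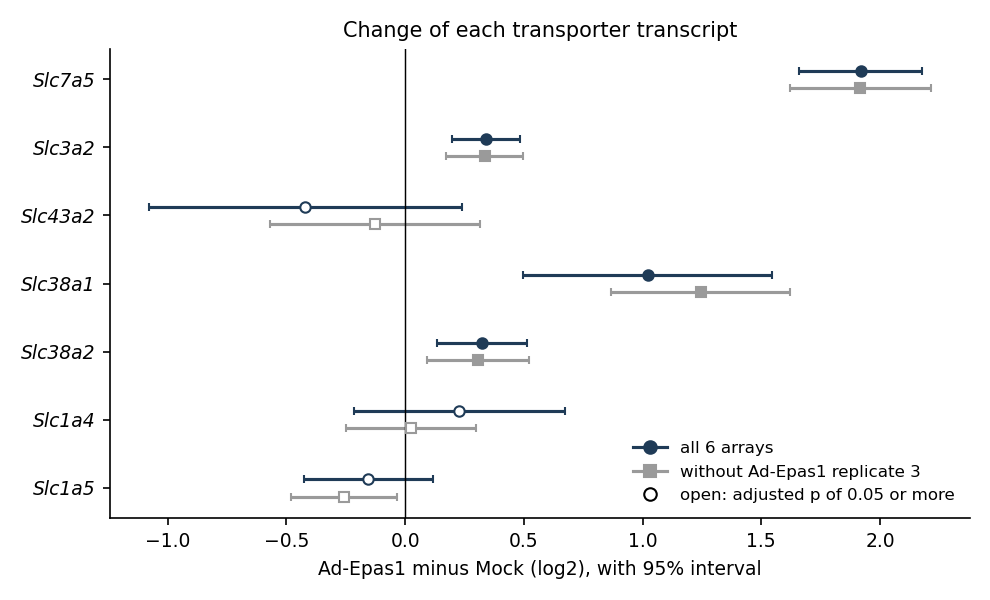
Difference between Ad-Epas1 and Mock (log2, horizontal axis) for each transporter with its 95% interval from limma, over all 6 arrays (circles) and without Ad-Epas1 replicate 3 (squares); filled symbols passed at an adjusted p under 0.05. Slc7a5, Slc3a2, Slc38a1 and Slc38a2 are filled in both fits, and Slc43a2 and Slc1a4 move toward 0 without that array.

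The sodium-coupled carriers Slc38a1 and Slc38a2 both rose. Slc38a1 stood at 10.20, 9.71 and 9.73 on Mock replicates 1, 2 and 3 and at 11.10, 11.15 and 10.46 on Ad-Epas1 replicates 1, 2 and 3. The groups did not overlap, but Ad-Epas1 replicate 3 lay well below the other Ad-Epas1 arrays and Mock replicate 1 above the other Mock arrays. The transcript was 2.03-fold higher (9.88 ± 0.28 and 10.90 ± 0.39, SD, n = 3 each), a log2 difference of 1.02 with an SE of 0.22 and a 95% interval from 0.50 to 1.55 (limma, adjusted p = 0.025). Without Ad-Epas1 replicate 3 the difference was 1.24 (adjusted p = 0.0025), so it was larger without the array low in macrophage transcripts. It did not pass without Ad-Epas1 replicate 1 (adjusted p = 0.075), Ad-Epas1 replicate 2 (0.088), Mock replicate 2 (0.099) or Mock replicate 3 (0.10), where the differences were 0.90 to 0.95.

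Slc38a2, which amino acid shortage is known to induce, stood at 12.23, 12.02 and 12.09 on Mock replicates 1, 2 and 3 and at 12.47, 12.37 and 12.47 on the Ad-Epas1 replicates. Each Ad-Epas1 array was above each Mock array, with the nearest being Ad-Epas1 replicate 2 and Mock replicate 1. The difference was 0.32 (12.11 ± 0.10 and 12.44 ± 0.057, SD, n = 3 each), or 1.25-fold, with an SE of 0.079 and a 95% interval from 0.14 to 0.51 (limma, adjusted p = 0.037). The rise was small and close to the threshold. It did not pass with each array centred on its median (0.27, adjusted p = 0.060) or without Ad-Epas1 replicate 1 (0.099), Ad-Epas1 replicate 2 (0.078), Mock replicate 2 (0.14) or Mock replicate 3 (0.13), and it did without Ad-Epas1 replicate 3 (0.31, adjusted p = 0.049). In the RefSeq gene order of GRCm38.p6, Slc38a1, Slc38a2 and Slc38a4 are consecutive protein-coding genes of chromosome 15. Slc38a4, a further member of this family, also rose, from 6.28, 6.40 and 6.45 on Mock replicates 1, 2 and 3 to 7.50, 7.29 and 7.39 on the Ad-Epas1 replicates (1.01, SE 0.085, limma, adjusted p = 0.0015). Its Mock levels were below 6.62, the 95th percentile of the receptor genes, so its fold change is not exact.

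The exchangers Slc1a4 and Slc1a5 did not pass. Slc1a4 stood at 10.64, 10.66 and 10.63 on Mock replicates 1, 2 and 3, a narrow range (10.645 ± 0.0175, SD, n = 3). On Ad-Epas1 replicates 1, 2 and 3 it stood at 10.49, 10.85 and 11.28. The Ad-Epas1 arrays thus lay on both sides of Mock, with replicate 3 highest. The difference was 0.23 with a 95% interval from -0.22 to 0.67 (limma, adjusted p = 0.44), and 0.024 (-0.25 to 0.30, adjusted p = 0.90) without Ad-Epas1 replicate 3.

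Slc1a5, the glutamine exchanger, stood at 10.68, 10.92 and 10.88 on Mock replicates 1, 2 and 3 and at 10.55, 10.58 and 10.87 on Ad-Epas1 replicates 1, 2 and 3. Ad-Epas1 replicates 1 and 2 were below all Mock arrays, and replicate 3 was level with Mock replicate 3. The difference was -0.16 with a 95% interval from -0.43 to 0.12 (limma, adjusted p = 0.39), and -0.26 (-0.48 to -0.035, adjusted p = 0.094) without Ad-Epas1 replicate 3. Slc1a5 did pass, downward, with array weights (-0.27, adjusted p = 0.033) and on removing Mock replicate 1 together with Ad-Epas1 replicate 3 (-0.33, adjusted p = 0.023). Its dimmer probe set differed by 0.059 (SE 0.062, limma over all probe sets, adjusted p = 0.55), with levels from 7.18 to 7.29 over the 6 arrays, so the probe sets differed in sign and neither passed.

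The 4 members whose levels differed most among the Ad-Epas1 arrays each had their extreme value on replicate 3. From the Mock mean, Slc38a1 lay at 1.22 and 1.27 on Ad-Epas1 replicates 1 and 2 and at 0.58 on replicate 3. Slc43a2 lay at -0.013, -0.24 and -1.004 on the Ad-Epas1 replicates 1, 2 and 3. In the opposite direction, Slc1a4 lay at -0.16, 0.21 and 0.63 and Slc1a5 at -0.27, -0.25 and 0.051. Slc7a5, Slc3a2 and Slc38a2 varied less, with Ad-Epas1 arrays within 0.012, 0.0195 and 0.10 of each other. Macrophage markers differed by far more on that array, and their part in these 4 levels was not tested.

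**Figure D3:**
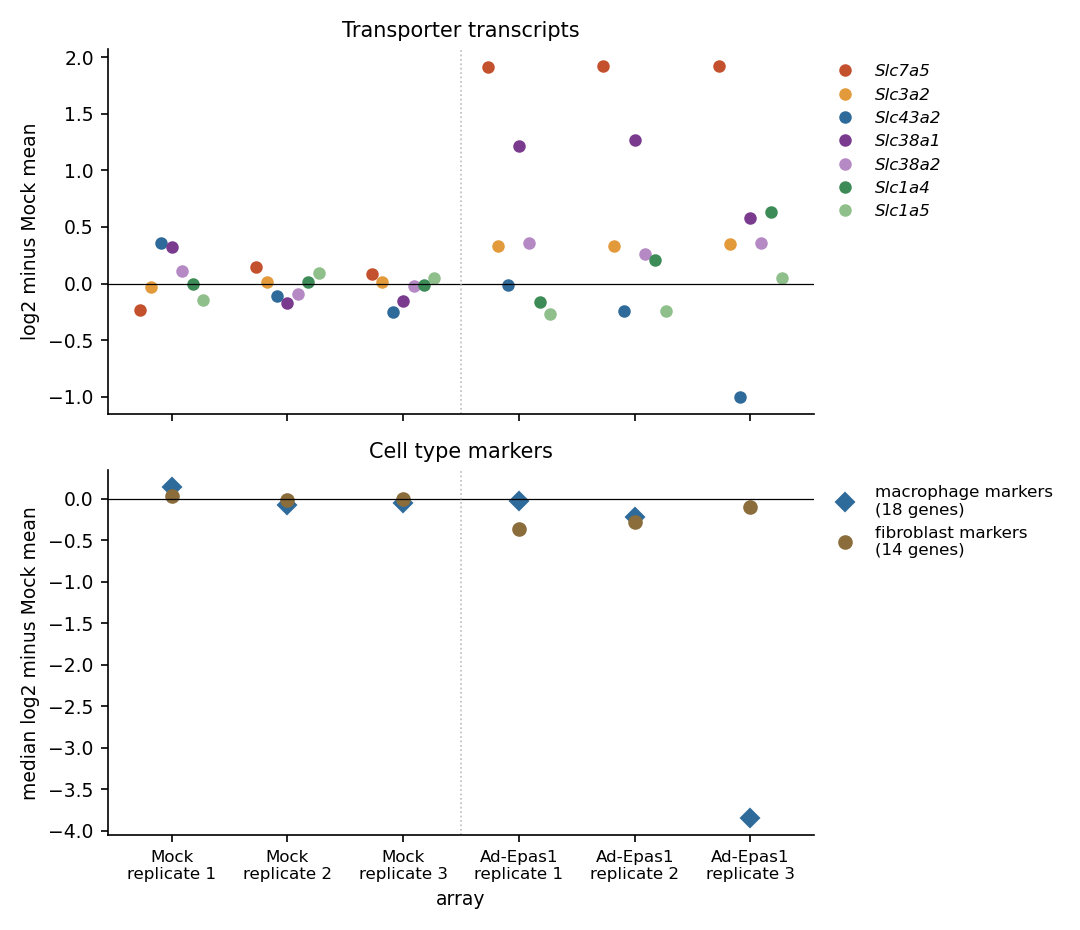
Upper panel: level of each transporter transcript on each array minus its Mock mean (log2). Lower panel: median of the same quantity over 18 macrophage and 14 fibroblast markers. On Ad-Epas1 replicate 3 the macrophage markers lie at -3.85, Slc43a2 at -1.004 and Slc38a1 at 0.58, while Slc7a5 stays at 1.92.

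Promoter sequence was available for 4 of the 7 genes, as RefSeq windows of 300 bases (250 before to 50 after a start site, GRCm38.p6). No window was matched for Slc7a5, Slc1a5 and Slc38a1. Each window was searched on both strands for ACGTG and GCGTG (the core letters of the element that HIF proteins bind), for CACGTG (the E-box, which also contains ACGTG) and for TGATGNAAN (the C/EBP-ATF element through which Atf4 acts). The upstream 250 bases of the risen members Slc3a2 and Slc38a2 are printed 5′ to 3′ along the gene with motif letters in capitals, together with the 27 bases around the only TGATGNAAN match.
Slc3a2, chr19:8713898-8714147, minus strand: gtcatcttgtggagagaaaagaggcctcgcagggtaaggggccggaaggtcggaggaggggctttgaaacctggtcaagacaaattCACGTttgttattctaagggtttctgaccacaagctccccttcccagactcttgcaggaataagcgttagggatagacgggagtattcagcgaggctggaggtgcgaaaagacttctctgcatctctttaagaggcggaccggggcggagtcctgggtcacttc
Slc38a2, chr15:96699729-96699978, minus strand: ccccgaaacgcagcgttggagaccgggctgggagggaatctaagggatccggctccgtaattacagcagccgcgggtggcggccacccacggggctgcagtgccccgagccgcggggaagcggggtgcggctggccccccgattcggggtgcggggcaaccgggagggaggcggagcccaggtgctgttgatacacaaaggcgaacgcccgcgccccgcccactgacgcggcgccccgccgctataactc
Slc1a4, chr11:20332701-20332727, minus strand: gcctcctgcGTTGCATCAtctccagcc

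The Slc3a2 window held ACGTG once, on the strand opposite the gene (printed CACGT), with its leftmost base at -164 from the start site. That start site lies inside the annotated span of Slc3a2, downstream of its outermost start. The Slc38a2 window held GCGTG once, at 29 bases past the start site and so outside the printed stretch, and none of the other motifs. The Slc1a4 window held GCGTG on each strand, at -223 and -18, and TGATGNAAN on the opposite strand from -5 (printed GTTGCATCA). Of the windows for Slc43a2, which had 2, only the downstream one held a motif, GCGTG at -105. Over 32851 RefSeq windows of the same length, 19.6% held ACGTG, 32.4% GCGTG, 43.8% either of them, 7.15% CACGTG and 3.95% TGATGNAAN. These matches are descriptions of letters, and no binding was measured. The C/EBP-ATF letters were found beside Slc1a4, which did not pass, and not in the windows of the risen Slc3a2 and Slc38a2. Only 3.95% of all windows held them, and the risen Slc7a5 and Slc38a1 had no window. Sequence outside the windows was not searched, so elements elsewhere in these genes could not be seen. A part of Atf4 in these changes was not tested.

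Of the 6 measured light chains that Slc3a2 is known to carry, 2 rose, none fell and 4 did not pass. That is 33.3% changed, against 16.3% of all genes. None of the 6 had a Mock mean below 6.62, and the share among brighter genes was higher than 16.3%. Besides Slc7a5, the risen chain was Slc7a11, the cystine and glutamate exchanger. It stood at 8.18, 7.23 and 7.24 on Mock replicates 1, 2 and 3 and at 12.01, 11.92 and 9.15 on Ad-Epas1 replicates 1, 2 and 3 (difference 3.48, SE 0.76, limma, adjusted p = 0.026). Ad-Epas1 replicate 3 was far below the other Ad-Epas1 arrays, and without it the difference was 4.41 (adjusted p = 0.00033). Its call was lost on removing replicates 1 or 2 of Ad-Epas1 (adjusted p = 0.074 and 0.093) or replicates 2 or 3 of Mock (0.10 for each). It was also lost when the gene's probe sets were averaged (difference 2.56, limma, adjusted p = 0.054) and with limma's trend and robust prior (0.072).

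Slc7a6, which exchanges cationic for neutral amino acids, differed by 0.41 (SE 0.11, limma, adjusted p = 0.051) and passed without Mock replicate 1 (0.51, adjusted p = 0.029) or Ad-Epas1 replicate 3 (0.45, adjusted p = 0.036). Slc7a8 (LAT2), the closest functional relative of Slc7a5 in this list, stood at 11.90, 11.37 and 11.42 on Mock replicates 1, 2 and 3 and at 11.44, 11.24 and 6.92 on Ad-Epas1 replicates 1, 2 and 3. It was thus near its Mock level on 2 Ad-Epas1 arrays and very low on the array low in macrophage transcripts. Its difference was -1.70 (adjusted p = 0.35), and -0.22 (adjusted p = 0.39) without that array. Slc7a7 differed by -0.84 (adjusted p = 0.17), and by -0.39 (adjusted p = 0.11) without it, with 8.58, 8.60 and 7.25 on the Ad-Epas1 replicates. Slc7a10 differed by 0.019 (adjusted p = 0.86).

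Of 26 other measured carriers of neutral amino acids, 1 rose (Slc38a4), 1 fell and 24 did not pass, with a median of 0.064. That is 7.69% changed, against 16.3% of all genes, and 12 of the 26 had Mock means below 6.62, the 95th percentile of the receptor genes. The fallen gene was Slc38a6, at 9.02, 8.76 and 8.83 on Mock replicates 1, 2 and 3 and 8.45, 8.08 and 8.25 on the Ad-Epas1 replicates (-0.61, SE 0.12, limma, adjusted p = 0.018). On removing replicate 2 of either group, or Mock replicate 3, Slc38a6 did not pass. Slc6a19, the kidney and gut carrier, differed by 0.21 (adjusted p = 0.097) at levels under 6.62.

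Among 14 carriers of cationic or acidic amino acids and cystine, 2 rose, 3 fell and 9 did not pass. That is 35.7% changed, against 16.3% of all genes. Slc7a2, a carrier of arginine and lysine, rose from 11.49, 11.32 and 11.41 on Mock replicates 1, 2 and 3 to 12.10, 12.35 and 12.33 on the Ad-Epas1 replicates (0.85, SE 0.092, limma, adjusted p = 0.0030). The glutamate carrier genes Slc1a6 and Slc1a1, relatives of Slc1a4 and Slc1a5, fell by 1.17 (SE 0.16, adjusted p = 0.0057) and by 1.00 (SE 0.20, adjusted p = 0.021). The call of Slc1a1 was lost on removing replicates 1 or 2 of Ad-Epas1 or replicates 2 or 3 of Mock (adjusted p = 0.055 to 0.087). The fallen group also held Slc7a1 (-0.33, adjusted p = 0.032), named after its value was seen, whose call was lost on removing Mock replicate 1, replicate 2 of either group or Mock replicate 3 (adjusted p up to 0.13). Over both carrier lists the count of changed genes moved by 1.5 times or more with some single arrays left out. The neutral list gave 1 and the charged list 2 when replicate 2 of either group or Mock replicate 3 was removed. Without Ad-Epas1 replicate 1 the charged list gave 3, and without Ad-Epas1 replicate 3 the neutral list gave 3.

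Genes of the amino acid response, which Atf4 drives during amino acid shortage, moved in both directions. Of 26 measured, 5 rose, 9 fell and 12 did not pass, with a median of 0.032. That is 53.8% changed, against 16.3% of all genes. Ppp1r15a, a phosphatase subunit that lets translation resume after stress, rose by 1.93, Sesn2, a leucine-sensing inhibitor of mTORC1, by 1.10 and Nupr1, a stress-induced chromatin factor, by 0.93 (limma, adjusted p = 0.0011, 0.0015 and 0.0027). Atf4 itself differed by 0.23 (adjusted p = 0.26), and by 0.37 (adjusted p = 0.011) without Ad-Epas1 replicate 3. The fallen members included Asns, asparagine synthetase (-0.69, adjusted p = 0.0069), and 2 enzymes of serine synthesis named after their values were seen, Phgdh (-0.99, adjusted p = 0.0027) and Psat1 (-0.77, adjusted p = 0.045). Psat1 passed without Ad-Epas1 replicate 3 but in none of the other 5 fits with 1 array left out (adjusted p = 0.082 to 0.15), and Phgdh passed on removing any of the 6. Removing replicate 2 or 3 of Mock left 3 risen and 5 or 4 fallen members, and removing replicate 2 of Ad-Epas1 left 4 and 5. Without Ad-Epas1 replicate 3, low in macrophage transcripts, 9 rose and 11 fell.

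Enzymes that load amino acids onto tRNA mostly fell. Of 17 measured cytosolic aminoacyl-tRNA synthetases, 10 fell, 1 rose and 6 did not pass, against 9.75% of all genes fallen, with a median of -0.34. Vars, for valine, fell by 1.05, Iars, for isoleucine, by 0.58 and Lars, for leucine, by 0.48 (limma, adjusted p = 0.0052, 0.0048 and 0.0061), and each passed with any array left out. The risen gene was Cars, for cysteine (0.57, limma, adjusted p = 0.010), named after its value was seen. Cars did not pass without Mock replicate 2 (adjusted p = 0.056) or Mock replicate 3 (0.052), so no synthetase rose in those fits. The fallen count was 4 on removing replicate 2 or 3 of Mock, 5 on removing replicate 1 or 2 of Ad-Epas1, and 6 without Mock replicate 1.

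Genes that use glutamine and branched-chain amino acids also fell in part. Of 20 measured, 9 fell, 2 rose and 9 did not pass, with a median of -0.32. That is 55% changed, against 16.3% of all genes. Mccc2, a subunit of the leucine-degrading methylcrotonyl-CoA carboxylase, fell by 0.90 (limma, adjusted p = 0.0025), and Gpt2, the mitochondrial alanine transaminase, by 0.65 (adjusted p = 0.0086). Asns belongs to this list as well. The risen members, named after their values were seen, were Glul, glutamine synthetase (0.60, adjusted p = 0.042), and Got1, an aspartate transaminase (0.43, adjusted p = 0.020). Glul passed, of the fits with 1 array left out, only in that without Mock replicate 1, and Got1 only in those without replicate 1 or 3 of Ad-Epas1. Glul has 2 probe sets and Got1 has 1. With the probe sets of each gene averaged, only 1 member of this list rose. The fallen count was 3 without Mock replicate 2, 4 without Mock replicate 3 and 6 without Ad-Epas1 replicate 2, and no member rose in these fits.

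**Figure D4:**
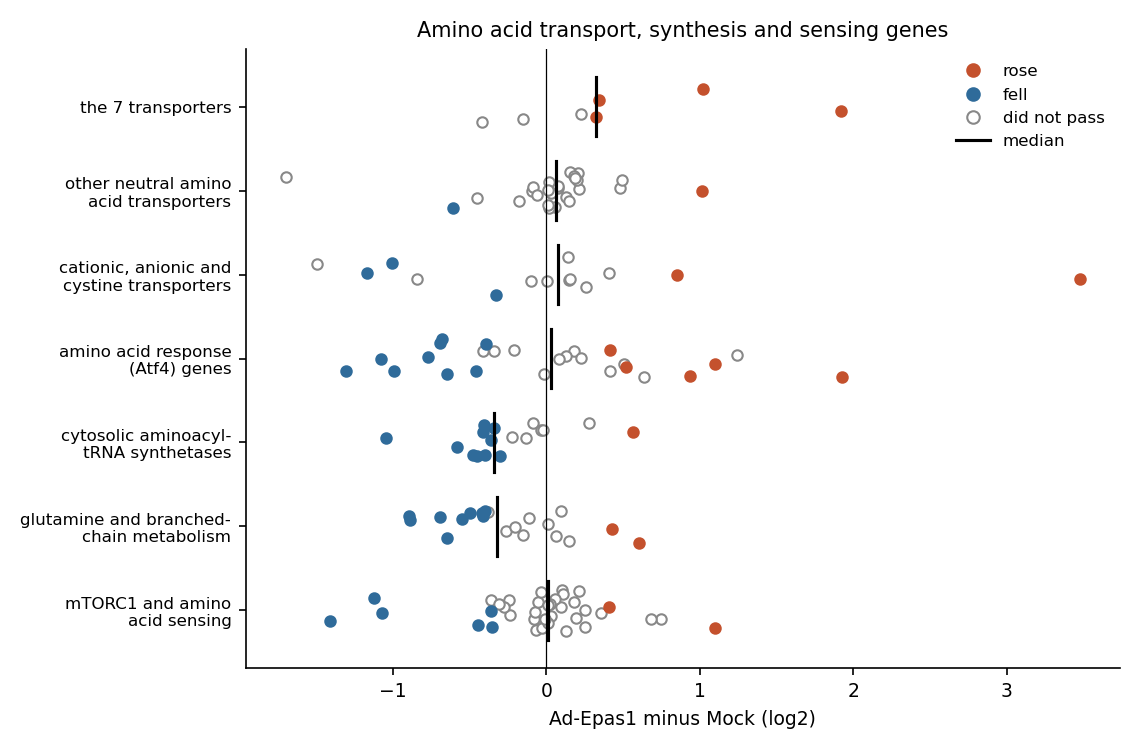
Difference between Ad-Epas1 and Mock (log2, horizontal axis) for each measured gene of 7 lists, red for risen, blue for fallen and open for genes that did not pass, with a black bar at each list's median (vertical jitter has no meaning). The 7 transporters have a median of 0.32, the aminoacyl-tRNA synthetases of -0.34 and the glutamine and branched-chain genes of -0.32.

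In the mTORC1 pathway, which senses amino acids at the lysosome, 2 of 37 measured genes rose, 6 fell and 29 did not pass, with a median of 0.0076. That is 21.6% changed, near the 16.3% of all genes. The sestrins, which restrain mTORC1, differed in direction: beside the rise of Sesn2, Sesn1 fell by 1.41 (limma, adjusted p = 0.0017) and Sesn3 by 1.13 (adjusted p = 0.013). Sesn3 did not pass on removing replicate 2 of either group or replicate 3 of Mock (adjusted p up to 0.064). Without Ad-Epas1 replicate 3 the list gave 6 risen and 8 fallen members, without Mock replicate 1 it gave 2 and 3, without Ad-Epas1 replicate 1 it gave 1 and 3, and on removing replicate 2 of either group or replicate 3 of Mock it gave 1 and 1.

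Of 15 measured genes known to control these transporters or their turnover, 6 rose, 2 fell and 7 did not pass. That is 53.3% changed, against 16.3% of all genes. The delivered Epas1 is among the 6 that rose. Nedd4l, a ubiquitin ligase that marks membrane transporters for removal, rose from 9.36, 9.43 and 9.47 on Mock replicates 1, 2 and 3 to 10.37, 10.36 and 10.08 on the Ad-Epas1 replicates (0.85, SE 0.096, limma, adjusted p = 0.0034). Mxd1, which opposes Myc, rose by 1.04 (adjusted p = 0.0079), while Myc, known to activate Slc7a5 and Slc1a5 in dividing cells, fell by 0.47 (adjusted p = 0.034). Myc was named after its value was seen, and its call was lost (adjusted p = 0.081 to 0.11) with each array left out in turn, Ad-Epas1 replicate 3 excepted. The count of changed genes was 3 on removing replicate 2 or 3 of Mock, 4 without Ad-Epas1 replicate 2, and 5 without replicate 1 of either group.

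Over the 6 arrays the level of Slc7a5 ran most closely with Akap2 (Pearson r = 0.999) and Zc3h10 (0.998), and that of Slc3a2 with Akap2 (0.999) and Slc7a5 itself (0.998). Slc38a1 was followed most closely by Tnfrsf9 (0.999) and Sec16a (0.997), and Slc38a2 by Sln (0.997) and Stap2 (0.996). These values describe 6 arrays in 2 groups, where a shared difference between groups alone gives a high r. The search covered the 6556 genes with an SD of at least 0.2 over the arrays, with predicted Gm and Rik symbols left out. Tnfrsf9, a receptor of immune cells, was like Slc38a1 lower on Ad-Epas1 replicate 3 than on the other Ad-Epas1 arrays. It stood at 10.57, 10.58 and 9.07 on Ad-Epas1 replicates 1, 2 and 3, all above its Mock levels. Those were 8.36, 7.36 and 7.38 on Mock replicates 1, 2 and 3.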

How the data were processed

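Total RNA of 6 samples (3 Mock, 3 Ad-Epas1, grouped by title) was measured on Affymetrix whole-transcript arrays. The authors deposited log2 expression values per probe set after RMA (background correction, quantile normalization, probe summary). Per the submitters' processing notes this was done in Affymetrix Expression Console 1.3.1. Such normalization hides a change shared by most genes and compresses large folds. Their genome build: not given in the sources used here.

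The platform annotation gave a single symbol to 23521 of the 41345 probe sets, several symbols to 1814, which were left unnamed, and none to 16010. The first kind gave 22180 genes, each by its brightest probe set, with no filter on level. The groups were tested with limma 3.58.1 (lmFit and eBayes, R 4.3.3), two-sided, Benjamini-Hochberg adjusted over all 22180 genes, with a threshold of 0.05; the procedure was tested on simulated data. No label names a batch.

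The 12 gene lists held 209 symbols, of which 199 were measured (14 under another name) and 10 were not analysed here. The members and lists were chosen with earlier results of these data known. Named genes are the 7 members, Epas1, all light chains of Slc3a2 and the 3 smallest p-values of each pathway list. For each risen member they include the 2 genes with the highest Pearson r among those with an SD of at least 0.2. Predicted genes with Gm or Rik symbols were left out of that search. Replicate numbers are shared between groups, but the design text of the series names no block, so the main comparison has none. Deviations of same-numbered arrays did not all correlate, which does not settle whether the arrays were paired. Promoter sequences are from RefSeq (GRCm38.p6). Alternatives were a replicate block, each array or a pair of arrays left out, further quantile normalization, median centring, only genes above the median level, a trend and robust prior, array weights, other handling of probe sets and no shared variance.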

Additional observations from a re-analysis of the deposited data

How the results depend on the processing

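The rise of Slc7a5 passed the test under all 16 alternatives (log2 difference 1.80 to 1.99). Slc3a2 passed under 13, Slc38a1 under 11 and Slc38a2 under 9, always with the same sign, while Slc1a4 and Slc43a2 passed under 0 and Slc1a5 under 2. With 1 array left out the count of called members lay between 1 and 4 and that of all called genes between 1181 and 5390, and without shared variance the counts were 2 and 1448. Array weights called 7791 genes, and leaving out both Mock replicate 1 and Ad-Epas1 replicate 3 called 6000. Without those arrays Slc43a2 turned to 0.051 (adjusted p = 0.76). Slc7a10 turned to -0.012 with further quantile normalization and to -0.032 with median centring, neither called. Slc16a10 turned to 0.32 without both of those arrays and to 0.0055 with array weights, and lay between -0.88 and 0.21 with 1 array left out. Median centring gave 1080 risen and 2742 fallen genes against 1458 and 2162. The causes were not tested.

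With the replicate number as a block, 3 members and 3108 genes were called, Slc38a2 losing its call (adjusted p = 0.054), as did Myc (0.059) and Slc7a1 (0.050), and the mTORC1 list gave 5 called genes against 8. Deviations of same-numbered arrays correlated at 0.34, -0.19 and 0.21, and not every array correlated best with its own number. The number of arrays (3 against 3) limits all of these results.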

Other observations

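The Ad-Epas1 arrays differed very little in Slc7a5. Its SD over these 3 arrays was 0.0068, and 0.26% of all genes had a smaller one, whereas over the Mock arrays its SD was 0.21 and 88.7% of genes had a smaller one. Slc3a2 also varied little over the Ad-Epas1 arrays (SD 0.011, 0.75% of genes smaller), and over the Mock arrays as well (SD 0.023, 6.18% smaller). The highest value deposited for any probe set was 13.77. Slc1a4 showed the reverse of Slc7a5, with an SD of 0.0175 in Mock (3.48% of genes smaller) and 0.40 in Ad-Epas1 (94.1% smaller).

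Slc16a10, a carrier of aromatic amino acids, was, like Slc7a8, Slc7a7 and Slc43a2, lowest on Ad-Epas1 replicate 3. It stood at 9.18, 8.80 and 7.01 on Ad-Epas1 replicates 1, 2 and 3 and at 9.01, 8.65 and 8.68 on Mock replicates 1, 2 and 3 (difference -0.45, limma, adjusted p = 0.59). Without Ad-Epas1 replicate 3 the difference turned to 0.21 (adjusted p = 0.39). The gene was chosen after its values were seen.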
